A study of Mus musculus with 2 samples.

Results

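The genes described here are the 9 immunoglobulin constant regions Igha, Ighm, Ighd, Ighg1, Ighg2b, Ighg2c, Ighg3, Igkc and Iglc2, and the J chain gene Jchain. They are 10 of the 32285 genes counted in single-cell libraries from mouse liver and were found by their gene symbols. The 10 genes were chosen on their measured UMI counts in these same libraries, so every level and every difference below is a description and carries no test. The study compared male C57BL6 WT mice with N-LKO mice, in which albumin-Cre removes the loxP-flanked Nus1 gene from hepatocytes. Nus1 encodes NgBR, a subunit of the enzyme that makes dolichol, the lipid on which N-glycans are built. Both groups are labelled with the same 16 weeks of diet, which the titles call HFD and the treatment labels WD. Each group had 1 library, prepared from WT liver or from N-LKO liver together with its tumors, and the study mixed hepatocytes and nonparenchymal cells at set ratios before loading. Genotype, tumor tissue and library cannot be told apart, and the intervals given here cover counting error only. The number of animals behind each library is not stated in the sources used here. The albumin promoter drives Cre in hepatocytes, so the deletion does not target B-lineage cells.

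An antibody is made of 2 heavy and 2 light chains, and the constant region of the heavy chain sets its class. A B cell first makes IgM and IgD from a single long transcript that is spliced to Ighm or Ighd, and class switching then replaces them with a downstream gene such as Ighg2b or Igha. A plasma cell secretes large amounts of antibody of 1 class with 1 light chain, either kappa (Igkc) or lambda (Iglc1, Iglc2 or Iglc3). Jchain encodes the small protein that links IgA into dimers and IgM into pentamers, and in the gut and liver the polymeric immunoglobulin receptor carries such polymers into secretions.

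In the GENCODE M21 annotation of GRCm38, the 7 heavy chain members lie on the reverse strand of chromosome 12. The gene of IgM, Ighm, lies at chr12:113418558-113422730, next to Ighd at chr12:113406604-113416324. Ighg3 (chr12:113356224-113361232), Ighg1 (chr12:113325240-113330523), Ighg2b (chr12:113302965-113307933) and Ighg2c (chr12:113285325-113288932) follow in the direction of transcription, and Igha comes last at chr12:113254830-113260236. Igkc lies on the forward strand at chr6:70726435-70726966, Iglc2 on the reverse strand at chr16:19198396-19200351 and Jchain on the reverse strand at chr5:88519809-88527891. These positions are from GENCODE and not from the files of the study, whose labels name the build mm9.

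The secreted forms of IgA and IgM end in a tail that the J chain protein binds, and the IgG forms lack it. To show that difference, the last 60 coding bases of the secreted transcripts, stop codon included, are printed 5′ to 3′ on the reverse strand of GRCm38, with the codon of the penultimate cysteine, through which the chains are linked to the J chain, in capitals.
Igha, chr12:113258768-113258827: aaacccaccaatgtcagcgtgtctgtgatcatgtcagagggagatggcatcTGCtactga
Ighm, chr12:113420867-113420926: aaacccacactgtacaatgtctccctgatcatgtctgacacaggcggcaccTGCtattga
Ighg2b, chr12:113306389-113306448: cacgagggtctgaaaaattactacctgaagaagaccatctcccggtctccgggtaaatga
Ighg2c, chr12:113287389-113287448: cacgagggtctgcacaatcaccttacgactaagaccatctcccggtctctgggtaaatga
The Igha and Ighm ends were equal at 41 of 60 positions, and neither IgG end held a cysteine codon at that place. The longest run shared by the secreted transcripts of Ighg2b and Ighg2c was 78 bases, and they shared no window of 90 bases.

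The 3 lambda constant genes were compared in the same way, since the assay reads the 3′ end of a transcript. Capitals mark the bases at which Iglc1 differs from Iglc2.
Iglc1, chr16:19061752-19061811: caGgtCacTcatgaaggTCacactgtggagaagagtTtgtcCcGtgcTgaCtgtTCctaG
Iglc2, chr16:19198536-19198595: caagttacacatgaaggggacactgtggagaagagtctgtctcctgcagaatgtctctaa
Iglc3, chr16:19065365-19065424: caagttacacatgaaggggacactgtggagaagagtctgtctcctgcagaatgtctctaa
The ends of Iglc2 and Iglc3 were equal at all 60 positions, and their coding parts were equal at 96.5% of 317 positions counted from the stop codon. The longest run they share was 79 bases, and no window of 90 bases was shared. The study sequenced longer reads than that, so only reads cut short could fall wholly in shared sequence, while the end of Iglc1 differed from that of Iglc2 at 13 of 60 positions.

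The libraries held 85522287 UMIs over 100171 barcodes for WT and 87575064 UMIs over 90147 barcodes for N-LKO. Of these barcodes, 18434 and 19851 were kept as cells, with median depths of 1401 and 1454 UMIs. The libraries shared 2499 barcode sequences, of which none was plasma-like in both. Nus1 was measured in the hepatocyte-like clusters pooled with 2 unnamed clusters. The WT pool had 72.9 CPM (the UMIs of a gene divided by all UMIs of the class, times 1e6). The N-LKO pool had 34.2 CPM, but the pools differed in make-up. The WT pool held 9511 hepatocyte-like cells, with 321 and 118 cells of the unnamed clusters. The N-LKO pool held 128 hepatocyte-like cells, with 2002 and 1956 cells of the unnamed clusters. For hepatocyte-like cells alone, the Nus1 level was 74.6 CPM (WT) against 38.8 CPM (N-LKO). Cells were clustered without any immunoglobulin gene, so the classes below were not built from the members. Plasma-like cells numbered 90 in WT and 220 in N-LKO, and 11 of their 12 markers were detected in each library. Detection alone did not set classes apart, since 11 and 12 of 13 B cell markers had UMIs there too. The plasma cell markers summed to 4984 and 5093 CPM in these cells, against 471 and 532 CPM in B-like cells. Xbp1, a regulator of antibody secretion, stood at 965 and 1096 CPM in plasma-like cells. Sdc1, another of the markers, was at 59.5 and 81.2 CPM, against 52.9 and 46.1 CPM in barcodes under 500 UMIs. B-like cells numbered 182 and 184, with all 13 B cell markers detected. Those summed to 6107 and 5722 CPM, against 985 and 1231 CPM in plasma-like cells. A further 130 and 567 B-lineage cells also carried markers of macrophages, endothelial cells or natural killer cells, or leading genes of an unnamed cluster, and were kept apart as B-lineage mixed.

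In plasma-like cells Igkc, Igha and Jchain had the highest levels of the members in both libraries, while Ighd and Ighg3 were nearly absent. Immunoglobulin genes of any kind, variable segments included, took a median of 21.9% of the UMIs of a WT plasma-like cell (range 0.247% to 46.0%, n = 90 cells) and 21.7% in N-LKO (range 0.326% to 50.6%, n = 220). Igkc, the kappa light chain, reached 124475 CPM in WT (18830 UMIs) against 122552 CPM in the N-LKO library (45288 UMIs). The 2 libraries lay close together, with a log2 ratio of N-LKO over WT of -0.02 (95% interval -0.05 to 0.00).

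Igha stood at 32828 CPM in WT plasma-like cells (4966 UMIs) and at 35344 CPM in those of N-LKO (13061 UMIs), and the log2 ratio was 0.11 (0.06 to 0.15). Jchain reached 18205 CPM (17532 to 18898) in the WT cells and 19608 CPM (19159 to 20065) in the N-LKO cells, and its log2 ratio was also 0.11 (0.04 to 0.17). For each gene, N-LKO stood 1.08-fold over WT in pooled UMIs, but the median of Jchain over single cells had the opposite order, 17515 CPM (WT) against 15179 CPM (N-LKO). Ighm rested on 508 UMIs (3358 CPM) in WT and on 3826 UMIs (10353 CPM) in N-LKO, the largest upward difference among the members, with a log2 ratio of 1.62 (1.49 to 1.76). Of the WT Ighm UMIs, 99.2% lay in 5 cells, and of the N-LKO UMIs 29.2% lay in the 5 richest cells.

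The IgG genes rested on few cells. Ighg2b, the constant region of IgG2b, had levels of 2889 and 4690 CPM in WT and N-LKO, and Ighg2c had levels of 2400 and 3466 CPM. Their log2 ratios of 0.70 (0.55 to 0.85) and 0.53 (0.36 to 0.70) stayed under 2-fold. Ighg1 had levels of 1044 and 422 CPM, giving a log2 ratio of -1.31 (-1.64 to -0.98), but 155 of the 158 WT UMIs came from 1 cell. Without the richest cell of each library the ratio turned to 2.99 (1.60 to 5.52). That value rested on 1 cell as well, since the 2 richest N-LKO cells held 88 and 67 of 156 UMIs. Ighd and Ighg3 were nearly absent from plasma-like cells, with 1 and 2 Ighd UMIs and 2 and 5 Ighg3 UMIs.

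**Figure D1:**
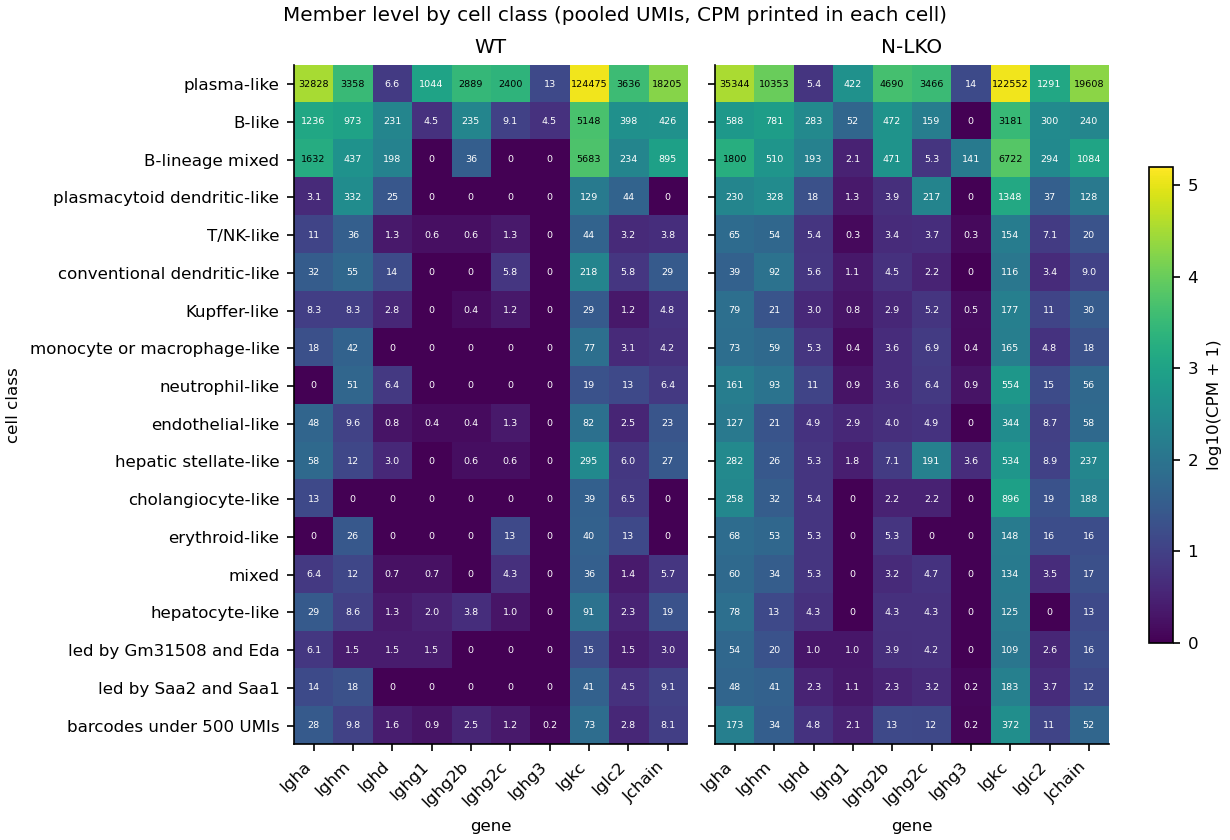
Level of the 10 members in each cell class of the WT library (left) and the N-LKO library (right). Rows are cell classes and barcodes under 500 UMIs, columns are genes, color is log10(CPM + 1) of the UMIs pooled over the class, and the printed number is the CPM. Plasma-like cells hold the highest value of every member except Ighd in both libraries and Ighg3 in N-LKO, and Igkc there reaches 124475 CPM (WT) and 122552 CPM (N-LKO).

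Each plasma-like cell with enough heavy chain UMIs was dominated by a single heavy chain class. A call was made where a cell held at least 10 heavy chain constant UMIs and at least 80% of them came from 1 gene, which 83 of 90 WT cells and 216 of 220 N-LKO cells met, and no cell with 10 UMIs was left unresolved. The median share of the leading class was 100% in both libraries, and the lowest was 83.3% in WT and 85.5% in N-LKO. All heavy chain UMIs were of 1 gene in 58 of the 83 WT cells and in 135 of the 216 N-LKO cells.

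IgA was the most frequent class in both libraries. It was called in 72 of 83 WT cells, or 86.7% (95% exact interval 77.5 to 93.2), and in 155 of 216 N-LKO cells, or 71.8% (65.3 to 77.7). IgM was called in 5 WT cells, or 6.02% (1.98 to 13.5), and in 34 N-LKO cells, or 15.7% (11.2 to 21.3). Any IgG was called in 6 WT cells, or 7.23% (2.70 to 15.1), and in 27 N-LKO cells, or 12.5% (8.40 to 17.7). The share of IgA was lower and those of IgM and IgG were higher in N-LKO. Each pair of intervals overlapped, for IgA only between 77.5% and 77.7%, and such overlap is no test of the difference. Within IgG, WT held 1 Ighg1, 2 Ighg2b and 3 Ighg2c cells, and N-LKO held 2 Ighg1, 13 Ighg2b and 12 Ighg2c cells. No plasma-like cell was called Ighg3 or Ighd, and the exact interval allows a share of up to 4.35% in WT and 1.69% in N-LKO.

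**Figure D2:**
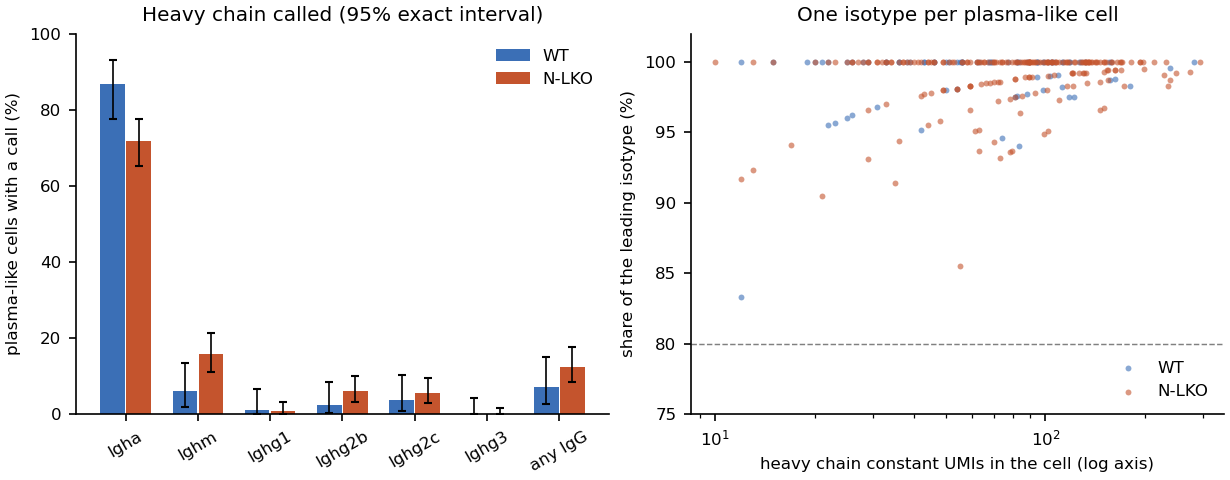
Left, percent of plasma-like cells with a call that were assigned to each heavy chain gene in WT (blue, 83 cells) and N-LKO (red, 216 cells), with 95% exact binomial intervals. Right, each point is a plasma-like cell with at least 10 heavy chain UMIs, the x axis is its heavy chain constant UMIs (log axis) and the y axis the share of its leading heavy chain in percent, with the dashed line at the 80% needed for a call. Most points lie at 100% and the lowest at 83.3%.

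Traces of other heavy chains in IgA cells were not spread evenly over the genes. Ighg2b was found at 209 CPM in the 72 WT IgA cells (24 UMIs in 13 cells) and at 259 CPM in the 155 N-LKO IgA cells (66 UMIs in 32 cells), against 2.45 and 13.3 CPM in barcodes under 500 UMIs. Ighm was at 34.8 and 141 CPM in the same cells, and Ighg2c at 78.4 and 66.6 CPM. Ighd had no UMI in IgA cells of either library. It was nearly absent from the unswitched IgM cells too, with 1 UMI in the 5 WT cells and 0 in the 34 N-LKO cells.

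J chain was detected in nearly all plasma-like cells whatever their class. At least 1 Jchain UMI was present in 72 of 72 WT and 154 of 155 N-LKO IgA cells, in 5 of 5 and 29 of 34 IgM cells, and in 6 of 6 and 26 of 27 IgG cells. The level differed more between classes than the detection did. IgA cells of WT held 20512 CPM of Jchain (19692 to 21358) and those of N-LKO 23972 CPM (23375 to 24580). IgM cells held less, at 9307 CPM in WT (7512 to 11401, 5 cells) and 9999 CPM in N-LKO (9183 to 10868, 34 cells). IgG cells held 23008 CPM in WT (20068 to 26257, 6 cells) and 11565 CPM in N-LKO (10637 to 12552, 27 cells). Cells of 1 class spread widely, since the quartiles over single N-LKO IgM cells were 2271 and 11591 CPM and those over N-LKO IgA cells 11531 and 30739 CPM. Jchain was thus present in IgG cells too, although IgG is secreted without a J chain.

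**Figure D3:**
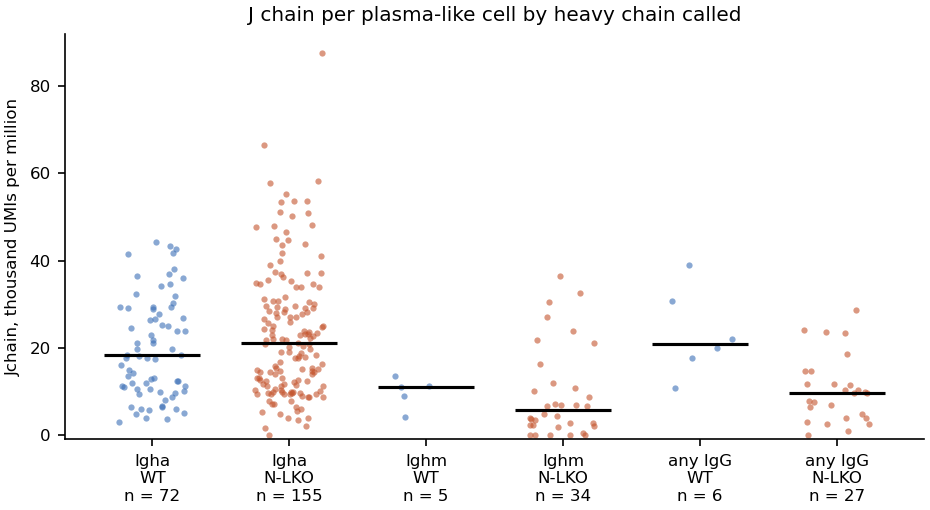
Jchain in each plasma-like cell, in CPM of the cell divided by 1000, by the heavy chain called and by library (blue WT, red N-LKO). Points are cells, the black bar is the median and n is the number of cells. The medians of IgA cells are 18247 and 21014 CPM in WT and N-LKO, and that of IgM cells is 10943 and 5728 CPM.

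The plasma-like class included a few dividing cells, 9 in WT and 17 in N-LKO, from a cluster led by proliferation genes. With immunoglobulin genes kept in the clustering, a dividing cluster of 9 WT and 18 N-LKO cells was named B-like, so this name depended on the setting. The dividing plasma-like cells held less immunoglobulin RNA. Their median was 5.43% of UMIs in WT (range 0.247% to 7.20%) and 4.12% in N-LKO (0.326% to 26.0%). The other plasma-like cells had medians of 23.3% and 23.0%. Jchain was at 4445 CPM in the dividing WT cells (3592 to 5440) and 7457 CPM in the dividing N-LKO cells (6601 to 8392), against 20441 and 20955 CPM in the other cells. Of the 275 Jchain UMIs in dividing N-LKO cells 109 came from 1 cell, and the medians over dividing cells had the opposite order, 4802 CPM (WT) and 2628 CPM (N-LKO) and a UMI in 8 of 9 and 11 of 17 cells. Of those dividing cells with a call, 6 of 6 in WT and 8 of 13 in N-LKO were IgA. Too few heavy chain UMIs for a call were held by 3 dividing WT cells and 4 dividing N-LKO cells.

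Kappa was the usual light chain. With the same rule of 10 UMIs and 80%, 82 of 89 WT plasma-like cells were kappa, or 92.1%, and 198 of 216 N-LKO cells, or 91.7%. Lambda was called in 4 WT cells, or 4.49% (1.24 to 11.1), and 16 N-LKO cells, or 7.41% (4.29 to 11.8). Of the 16 N-LKO lambda cells 7 were IgM, 7 were IgA and 2 were Ighg2c, while all 4 WT lambda cells were IgA. In 14 of the 16 N-LKO lambda cells the leading constant gene was Iglc1, and in the other 2 it was Iglc2.

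Among lambda cells with a leading variable segment of at least 5 UMIs, each segment went with 1 constant gene. In N-LKO 5 lambda cells had no such segment. The 9 N-LKO and 2 WT lambda cells led by Iglv1 all had Iglc1 as their leading constant gene. The cells led by Iglv2 or Iglv3, 2 in WT and 2 in N-LKO, all had Iglc2. Iglc2 had a lower level in N-LKO plasma-like cells, 1291 CPM against 3636 CPM in WT with a log2 ratio of -1.49 (-1.67 to -1.31). The 5 richest cells held 66.4% of its UMIs in WT and 45.7% in N-LKO, and without the richest cell of each library the ratio was -1.30 (-1.52 to -1.09). Kappa cells carried Iglc2 as well, with a UMI in 50 of 82 WT and 111 of 198 N-LKO cells, at 1445 CPM (1251 to 1661) and 793 CPM (701 to 895). Those levels were above the 2.82 and 10.8 CPM of barcodes under 500 UMIs.

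A leading variable segment could be read in part of the cells. A light chain variable gene with at least 5 UMIs led in 62 of 90 WT and 91 of 220 N-LKO plasma-like cells, spread over 35 and 38 segments. The most frequent in WT were Igkv5-39 in 5 cells and Igkv1-117, Igkv5-43 and Igkv6-23 in 4 cells each. In N-LKO they were Iglv1 in 12 cells, of which 9 were called lambda, Igkv1-135 in 8 and Igkv6-15 in 5. The most frequent segment led in 8.06% of the WT cells with a leading segment and 13.2% of the N-LKO cells. Heavy chain variable genes led in 17 WT and 24 N-LKO cells over 12 and 18 segments, with Ighv5-9-1 the most frequent in N-LKO at 3 cells. A pair of light and heavy segments could be read in only 16 of 90 WT and 16 of 220 N-LKO cells. Among these, no pair was seen in more than 2 cells of a library.

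B-like cells expressed the unswitched classes at a much lower level than plasma-like cells expressed theirs. Ighm had a UMI in 96 of 182 WT B-like cells, or 52.7% (45.2 to 60.2), and in 92 of 184 N-LKO cells (42.6% to 57.4%). With every cell thinned to 1000 UMIs the shares were 46.7% in both libraries. In T/NK-like cells, which should lack the gene, the thinned shares were 3.56% and 5.29%, at median depths of 1190 and 1357 UMIs against 1160 and 1188 UMIs in B-like cells. Ighd, the marker of naive B cells, had a UMI in 24.2% of WT B-like cells (thinned 21.4%) and 27.2% of N-LKO cells (thinned 21.7%), against thinned shares of 0.170% and 0.726% in T/NK-like cells. Ighm or Ighd was detected in 63.7% and 62.5% of B-like cells, and both in 13.2% and 14.7%. Igkc had a UMI in 73.6% (thinned 70.3%) and 76.6% (thinned 70.7%), against thinned shares of 3.82% and 13.5% in T/NK-like cells.

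A few cells with many heavy chain UMIs carried most of the switched RNA of the B-like class. Igha had 1236 CPM in WT B-like cells against 588 CPM in N-LKO ones, but 98.2% and 89.1% of those UMIs lay in 5 cells of each library. Without the 7 WT and 5 N-LKO B-like cells that held at least 10 heavy chain UMIs, Igha rested on 8 UMIs in WT (37.9 CPM) and 20 in N-LKO (88.7 CPM), and the direction turned, with a log2 ratio of 1.18 (-0.02 to 2.62). That level was 2.55 times (1.10 to 5.02) what free RNA would give in WT and 0.876 times (0.535 to 1.35) in N-LKO, by the estimate described for the other cell classes. Ighm at 801 and 763 CPM, Ighd at 237 and 293 CPM and Igkc at 1616 and 1629 CPM lay close in the libraries, with log2 ratios of -0.07 (-0.38 to 0.25), 0.30 (-0.25 to 0.87) and 0.01 (-0.21 to 0.23). Jchain then stood at 9.48 and 13.3 CPM, on 2 and 3 UMIs.

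Immunoglobulin RNA in the shallowest barcodes was more abundant in the N-LKO library. Barcodes under 500 UMIs, taken here as a measure of free RNA, numbered 18526 in WT and 13674 in N-LKO. The shallowest barcodes in the files held 326 and 377 UMIs, so emptier droplets were not analysed here, and single barcodes held up to 46 and 44 Igkc UMIs. Igkc was at 72.9 CPM in those of WT (595 UMIs) and 372 CPM in those of N-LKO (2269 UMIs), a 5.10-fold difference with a log2 ratio of 2.35 (2.22 to 2.48). Igha was at 28.3 and 173 CPM, with a log2 ratio of 2.61 (2.41 to 2.83), and Jchain at 8.08 and 52.1 CPM, with a ratio of 2.68 (2.30 to 3.09). Ighm was at 9.80 and 34.4 CPM, with a ratio of 1.81 (1.44 to 2.20). The UMIs were spread thinly, since 495 of the 516 WT barcodes and 1711 of the 1889 N-LKO barcodes with Igkc held a single Igkc UMI. Over all barcodes Igkc made up 365 CPM of the WT library and 999 CPM of the N-LKO library, a 2.74-fold difference.

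In cells that make no antibody, Igha and, in N-LKO, Igkc lay near the level that free RNA would give. For each class outside hepatocytes, the share of its RNA that was free was estimated from 8 hepatocyte genes, and this share times the level in barcodes under 500 UMIs gave an expected level. The cells counted here held under 10 heavy chain UMIs. In N-LKO T/NK-like cells Igkc was at 148 CPM (135 to 163) against 159 expected, Igha at 61.2 CPM (52.6 to 70.8) against 69.3, and Jchain at 18.6 CPM (14.0 to 24.2) against 20.1. In WT T/NK-like cells Igkc was at 44.2 CPM (34.4 to 55.9) against 31.3 expected, and Igha at 10.9 CPM (6.34 to 17.4) against 12.4. Over the 11 classes outside the B lineage and hepatocytes, the median ratio of observed to expected was 0.931 in WT and 0.908 in N-LKO for Igha, and 1.41 and 0.998 for Igkc. The share of T/NK-like cells with an Igkc UMI was 18.9% in N-LKO and 4.58% in WT (13.5% and 3.82% when thinned). That share is not read as a difference in expression, and its cause was not tested. In WT T/NK-like cells Igkc lay at 1.41 times (1.10 to 1.79) the expected level. The Igkc interval lay above 1 in 7 of the 11 classes in WT and in 3 in N-LKO. Igkc lay above the expected level in both libraries in Kupffer-like, plasmacytoid dendritic-like and mixed cells. WT conventional dendritic-like cells stood apart at 218 CPM against 23.9 expected, but 66 of their 76 Igkc UMIs came from 1 cell, as did 8 of their 10 Jchain UMIs.

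Ighm lay above the level expected from free RNA in most of the 11 classes. Its median ratio of observed to expected over the 11 classes was 4.88 in WT and 3.11 in N-LKO, and its interval lay above 1 in 9 classes in WT and 10 in N-LKO. Plasmacytoid dendritic-like cells held the most, at 332 CPM in WT (272 to 402, 106 UMIs) and 329 CPM in N-LKO (290 to 373, 250 UMIs), against 4.11 and 14.2 expected. Conventional dendritic-like cells stood at 54.6 and 92.3 CPM, T/NK-like cells at 36.5 and 54.1 CPM, neutrophil-like cells at 51.3 and 57.7 CPM, and monocyte or macrophage-like cells at 42.0 and 59.0 CPM. Kupffer-like cells lay lower, at 8.31 CPM against 3.29 expected in WT and 20.8 CPM against 10.9 expected in N-LKO. Ighd was above the expected level in both libraries in 4 classes, and its highest level was again in plasmacytoid dendritic-like cells, at 25.1 and 18.4 CPM. Jchain was above it in both libraries in no class of these 11. B-like cells held a median of 1 Ighm UMI in WT and 0.5 in N-LKO. The cut at 10 heavy chain UMIs therefore does not remove droplets that also hold a B cell. What such droplets add to these levels was not tested.

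**Figure D4:**
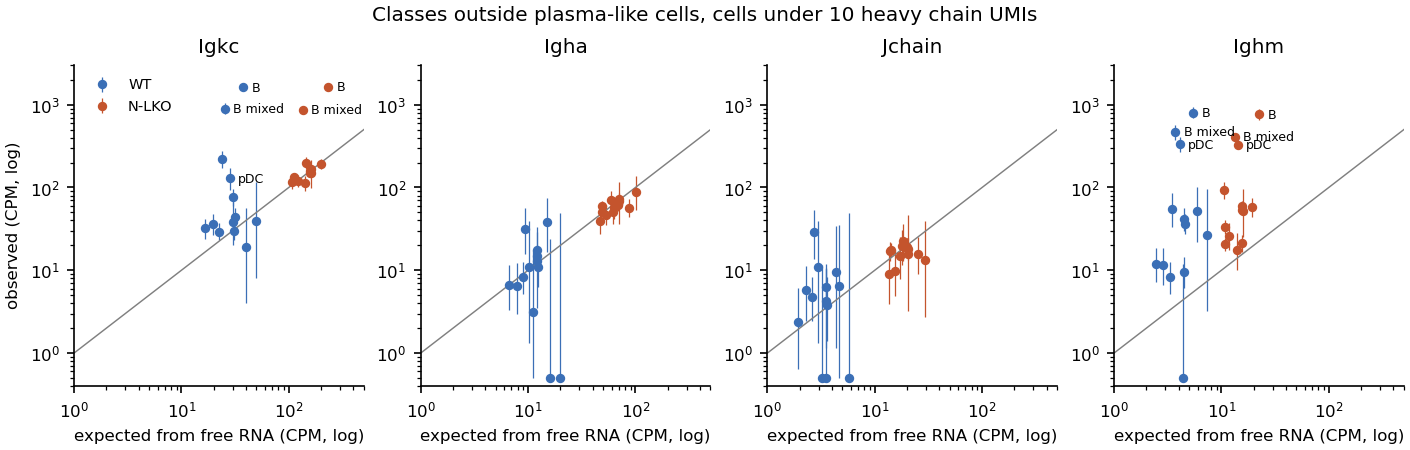
Observed level (y axis, CPM, log axis) against the level expected from free RNA (x axis, CPM, log axis) of Igkc, Igha, Jchain and Ighm in each cell class outside plasma-like and hepatocyte cells, with the line of equality. Blue points are WT and red points N-LKO, bars are 95% exact Poisson intervals, and points with no UMI are drawn at 0.5 CPM. Most Igha and Jchain points lie near the line, while Ighm lies above it in all classes except WT cholangiocyte-like cells (0 UMIs), with plasmacytoid dendritic-like cells (pDC) at 332 and 329 CPM.

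Compared between the libraries, few members passed the rule for a difference, which asked for at least 2-fold with an interval that leaves out 1. In plasma-like cells 1 of the 10 members was higher in N-LKO (Ighm) and 2 were lower (Ighg1 and Iglc2). Over all 12113 genes tested there, 1.91% were higher and 4.14% were lower. The median log2 ratio of the members was 0.04, against -0.15 over all tested genes. In B-like cells 2 of 9 tested members were higher (Ighg1 and Ighg2c) and 1 was lower (Igha), against 3.17% and 4.42% of 10693 genes. Of the B-like differences none held without the cells that carried at least 10 heavy chain UMIs. In barcodes under 500 UMIs the same rule called 7 members higher in N-LKO and none lower, where 18.6% of all 10135 tested genes were higher and 16.8% lower. The other 3, Ighd, Ighg1 and Ighg3, lay under 5 CPM in both libraries and were not tested, and Ighg2b, Ighg2c and Iglc2 reached 5 CPM in N-LKO alone.

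**Figure D5:**
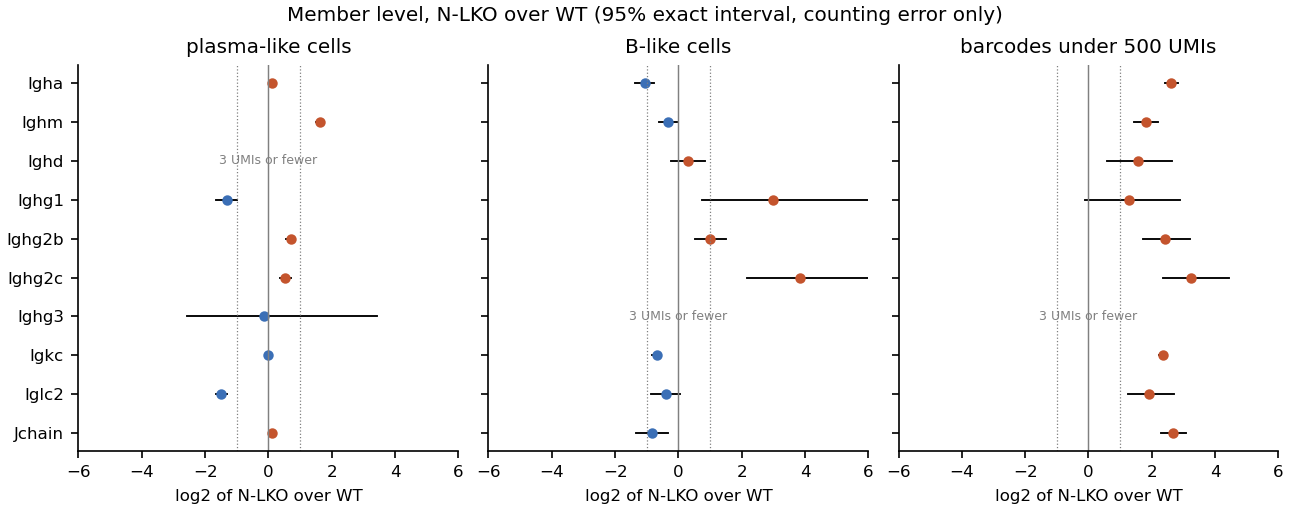
Log2 of the N-LKO level over the WT level of each member in plasma-like cells (left), B-like cells (middle) and barcodes under 500 UMIs (right), with 95% exact intervals that are drawn to -6 and 6 at most and cover counting error only. Dotted lines mark 2-fold, and genes with 3 UMIs or fewer in both libraries have no point. Igkc lies at -0.02 in plasma-like cells and at 2.35 in barcodes under 500 UMIs.

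Plasma-like cells were 1.06% of the non-hepatocyte cells of WT (90 of 8484, 0.854 to 1.30) and 1.40% of those of N-LKO (220 of 15765, 1.22 to 1.59). B-like cells were 2.15% (1.85 to 2.48) and 1.17% (1.01 to 1.35). With B-lineage mixed cells added, the B-like share was 3.68% in WT and 4.76% in N-LKO, so its direction depended on how mixed droplets were counted. The 2 unnamed clusters, led by Gm31508 and Eda or by Saa2 and Saa1, were left out of these totals. Since the study mixed the cell fractions at set ratios, the shares do not measure the make-up of the liver.

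Plasma-like cells held 60.3% of all Igkc UMIs of the WT library and 51.8% of those of N-LKO, and 57.3% and 47.8% of the Igha UMIs. At least 10 heavy chain UMIs were held by 136 WT and 422 N-LKO barcodes, of which 83 and 216 were plasma-like, 15 and 49 had been removed by their doublet score and 15 and 66 held under 1000 UMIs. Over all of these barcodes, IgA was called in 111 of 136 in WT, or 81.6% (74.1 to 87.7), and in 295 of 422 in N-LKO, or 69.9% (65.3 to 74.2). IgM was called in 9.56% (5.19 to 15.8) and 17.5% (14.0 to 21.5). Ighg3 rested on 1 N-LKO barcode, a B-lineage mixed cell that held 132 of the 178 Ighg3 UMIs of that library.

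Of 22 regulators of plasma cells and of the secretory machinery, none was higher in N-LKO plasma-like cells and 1 was lower, with a median log2 ratio of 0.02. These counts lie near the 1.91% higher and 4.14% lower of all tested genes and are no result about the list. That gene was Tnfrsf17, the survival receptor BCMA, at 165 CPM in WT (25 UMIs) and 48.7 CPM in N-LKO (18 UMIs), a log2 ratio of -1.75 (-2.72 to -0.83). Hsp90b1, the endoplasmic reticulum chaperone with the highest level of the list, was at 4184 and 4776 CPM. None of the 10 tested genes of B cell receptor signalling passed in either direction, with Cd79a, a signalling chain of the receptor, at 218 and 276 CPM. Of 4 tested ligands for survival and homing 1 was lower, against 4.14% of all tested genes. That ligand was Cxcl12, at 39.7 and 8.12 CPM on 6 and 3 UMIs. Both levels lay below the 86.1 and 38.7 CPM of barcodes under 500 UMIs, where Cxcl12 was lower in N-LKO as well. In B-like cells, 1 of 19 tested genes of the regulator and secretory list was higher in N-LKO and 0 were lower. Over all tested genes 3.17% were higher there, so this count is no result about the list. The gene was Edem1, which acts in the disposal of misfolded glycoproteins, at 31.7 CPM in WT (7 UMIs) and 90.1 CPM in N-LKO (21 UMIs). Its log2 ratio was 1.44 (0.22 to 2.99), and no gene of the receptor signalling list passed in B-like cells. Pigr, the polymeric immunoglobulin receptor and the highest of the receptor and transporter list, was at 390 and 349 CPM in plasma-like cells and at 575 and 489 CPM in B-like cells, all below the 1028 and 872 CPM of barcodes under 500 UMIs.

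The genes most like Igha, Ighm, Igkc and Jchain in level were sought over all cell classes. Over 34 pairs of class and library, among 14069 genes outside the immunoglobulin loci, St6gal1, which adds sialic acid to glycans, had the highest correlation with Igha (r = 0.848), and the uncharacterized gene Gm30211 with Ighm (r = 0.924). Pou2af1, a coactivator of immunoglobulin transcription, was highest for Igkc (r = 0.896) and Jchain (r = 0.861), and it ranked among the 5 highest for Igha and Ighm as well. The other genes among the 5 highest for Igha were Dnm3, Gm44734 and Gm39383. Of these, Gm44734 was low in plasma-like cells, at 6.61 and 10.8 CPM. Gm39383 was at 13.2 and 13.5 CPM there, below the 27.2 and 17.2 CPM of B-like cells. Mzb1, a chaperone of antibody-secreting cells, was among the 5 highest for Ighm, Igkc and Jchain, at 1190 and 1234 CPM in plasma-like cells. These correlations are descriptions on the log2(CPM + 1) scale, and the pairs share libraries, depth and free RNA.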

How the data were processed

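Single-cell 3′ RNA libraries, 1 from WT and 1 from N-LKO, were used. The deposited values are UMI counts per gene and barcode, made by the authors with Cell Ranger 7.1.0 per the file headers. The labels name mm9, and the annotation and the use of strand are not given in the sources used here. The authors' own annotation of cells was not used here.

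Barcodes with at least 1000 UMIs, 400 genes and at most 30% mitochondrial UMIs were kept. Doublets were scored per library with Scrublet in scanpy 1.11.5, and the 1724 WT and 2363 N-LKO barcodes with a score over 0.25 were removed. Cells were clustered without immunoglobulin genes (2000 variable genes, 30 components, 20 neighbors, Leiden resolution 0.3, leidenalg 0.10.2), and the B lineage was clustered again. Classes were named from marker lists. Levels are UMIs pooled over a class and scaled to a fixed total (CPM), with exact Poisson intervals, exact binomial intervals for shares and exact conditional intervals for ratios, all at 95% and computed with scipy 1.17.1. Ratios used a pseudocount of 0.5 UMIs, and genes were tested for the fold rule at 5 CPM or more. With 1 library per group no p-value was computed. The isotype, ratio and likeness steps were tested on simulated data. The counts simulated for the ratios were independent draws, so they do not cover members whose UMIs lie in a few cells.

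The members and gene lists were chosen with earlier results of these data known. Named genes were all 10 members, list genes past 2-fold or highest in their list, the 5 genes most like Igha, Ighm, Igkc or Jchain (Pearson r, at least 10 CPM in 1 pair), and the 3 variable segments leading in the most cells. Genes that served only as markers or as a check of the labels are named besides. Alternatives changed the cell filters, the clustering, the denominators, the scale and the calling rules.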

Additional observations from a re-analysis of the deposited data

How the results depend on the processing

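Of 390 values recomputed under alternatives, 118 summary values and 147 values of single genes stayed within their counting interval or within 1.5 times the main count, 46 and 72 moved, and 7 of single genes changed sign. IgA was less frequent and IgG more frequent in N-LKO in 13 of 13 alternatives, and IgM more frequent in 12 of 13. The alternatives largely reuse the same cells, so these tallies carry no separate support. At a minimum of 2000 UMIs, IgA was 71.4% in WT and 60.0% in N-LKO, WT IgM was 21.4% and N-LKO IgG was 24.4%. Plasma-like shares in WT and N-LKO were 0.568% and 0.878% at 500 UMIs, 1.72% in both at 2000 UMIs, 2.12% and 2.68% at a mitochondrial limit of 10%, and 1.97% and 2.19% of leukocyte-like cells. The N-LKO share was 1.67% at a doublet score below 0.15 and 1.59% before the second clustering. B-like shares were 5.58% and 3.35% at 500 UMIs, 0% and 0.182% at 2000 UMIs, 0.978% and 0.152% at 10% mitochondrial UMIs, 2.77% and 2.58% with immunoglobulin genes kept in the clustering, 3.98% and 1.83% of leukocyte-like cells, and 3.68% and 4.76% with mixed cells counted. The log2 ratio of Ighg1 in plasma-like cells turned to 3.77 at a doublet score below 0.15. It turned to 2.99 without the richest cell of each library, where it rested on 1 N-LKO cell. In B-like cells, with immunoglobulin genes kept in the clustering, the ratios turned to 1.06 for Igha, -1.07 for Ighg1 and -1.07 for Ighg2c, and without cells of at least 10 heavy chain UMIs to 1.18 for Igha and -0.10 for Ighg1. Members higher in N-LKO plasma-like cells numbered 2 at 10% mitochondrial UMIs, at a doublet score below 0.15 and before the second clustering, and 4 without the richest cells. Members lower there numbered 1 at 2000 UMIs, at a doublet score below 0.15 and without the richest cells. In B-like cells, 4 were higher with immunoglobulin genes kept, and 0 without the richest cells or without those of at least 10 heavy chain UMIs. Lower in B-like cells were 0 at 500 UMIs, without shared barcodes, with immunoglobulin genes kept and without cells of at least 10 heavy chain UMIs, and 2 at 10% mitochondrial UMIs, with free RNA subtracted and without the richest cells. With barcodes of 500 to 1000 UMIs as background, the log2 ratios were 1.86 for Igkc, 2.37 for Igha and 2.09 for Jchain. The cause of these changes was not tested, beyond the cells each alternative removes. B-like ratios at 2000 UMIs could not be computed, since WT then had no B-like cell. No paired analysis was possible because each group had 1 library, and no replicate could be left out. Alternatives on dividing cells, the second clustering, all heavy-rich barcodes, denominators and heavy-rich B-like cells were chosen after seeing the data.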

Other observations

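Constant genes outside the 10 described varied in level as well. Iglc1, a lambda constant gene, had levels of 4211 and 7328 CPM in WT and N-LKO plasma-like cells, and the log2 ratio was 0.80 (0.67 to 0.93). Iglc3 stood at 456 and 179 CPM there, a ratio of -1.35 (-1.86 to -0.84). In plasmacytoid dendritic-like cells with under 10 heavy chain UMIs, Iglc3 had levels of 226 and 195 CPM in WT and N-LKO, the highest of the 11 classes outside the B lineage and hepatocytes, and Iglc2 was at 43.9 and 30.3 CPM. Iglc2 and Iglc3 share runs of up to 79 bases and no window of 90 bases.

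Ighe, the constant region of IgE, had no UMI in the WT library and 29 in N-LKO, of which 22 lay in 1 barcode of 500 UMIs. That barcode was too shallow to be kept as a cell.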
